A study of Mus musculus with 22 samples.

Results

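The intermediate filament genes *Vim*, *Gfap*, *Nes*, *Synm*, *Krt8*, *Krt18*, *Krt19*, *Lmna*, *Lmnb1* and *Lmnb2* were followed in RNA sequencing data from adult mouse choroid plexus (ChP), the secretory epithelium of the brain ventricles. They are 10 of the 33984 genes in the count files, listed by family and with results of these pools already known. For each gene, 1 transcript was chosen by the count summed over all files, so that the transcript with the most counts stands for the gene, and no difference between groups entered that choice. RNA was measured in 14 pools of mice that form 7 groups of 2 pools, called A and B as in the labels. Conditional pools came from S129 mice of 3 months that carry floxed *Otx2* alleles in both treatment groups. A recombinant Cre protein that enters cells (Cre-Tat), or its vehicle, was injected into the lateral ventricles, and ChP of the lateral ventricles (LV) and of the fourth ventricle (4V) was dissected apart 15 days later. Each Cre-Tat pool held 5 mice and each vehicle pool held 4. LV and 4V ChP came from the same injected mice, so the ventricles are not independent sets of mice. Fits between ventricles took their pools as independent. Constitutive pools were 4V ChP of B6D2 mice with the genotype labels WT, Otx2(+/-) and Otx2(+/AA). WT and Otx2(+/-) mice were 3 months old, and in Otx2(+/-) mice a GFP allele replaces 1 copy of the gene. The study names pooled ChP of 5 WT and 4 Otx2(+/-) mice, with duplicate samples of each genotype. It does not state whether each pool held that many mice or whether pools A and B share mice. If they share mice, the constitutive tests do not measure the spread between sets of mice. The age and pool size of the Otx2(+/AA) mice and the nature of the AA allele are not given in the sources used here.

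Intermediate filaments are rope-like polymers that give a cell mechanical strength. Vimentin forms them in mesenchymal, endothelial, immune and glial cells, among others. Paired type I and type II keratins such as KRT18 and KRT8 form them in simple epithelia, to which the ChP belongs, and a cell can hold both kinds. GFAP is the filament protein of astrocytes, nestin and synemin are large proteins that co-assemble with vimentin or related partners, and the lamins line the inside of the nuclear envelope in nearly all cells.

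Pool totals were 22750019 to 50088408 counts, and levels are given as CPM, counts per 1000000 counts of the pool after scaling with TMM factors over all pools. *Otx2*, the targeted gene, had 385 and 469 CPM in LV vehicle pools A and B and 1235 and 1024 CPM in the LV Cre-Tat pools. In 4V ChP it had 385 and 393 CPM with vehicle and 1202 and 1222 CPM with Cre-Tat, 361 and 303 CPM in WT, 1027 and 885 CPM in Otx2(+/-) and 339 and 356 CPM in Otx2(+/AA). The count over the whole *Otx2* transcript was higher in the pools labelled Cre-Tat and Otx2(+/-), with log2 fold changes of 1.41, 1.64 and 1.53. In its sequencing the study followed the loss of *Otx2* by the reads of a single exon, which these counts per transcript do not hold apart. It also tested a small part of each conditional ChP by quantitative PCR for lower *Otx2*, and it cites lower OTX2 protein in both models. The counts used here do not check the labels, and every group below is named by its label. The file of 14 of the 16 conditional samples carries the library number of another sample, and files were joined to pools by that number. Joined in this way the pairs of technical runs of a pool agreed within sampling noise (chi-square per degree of freedom 1.002 to 1.032), while the pairs formed by attachment did not (13.2 to 20.5). The epithelial markers *Ttr*, *Aqp1*, *Kl*, *Folr1*, *Clic6*, *Kcne2* and *Prlr* summed to between 65370 and 193900 CPM in a pool, as the tissue label says. In these bulk pools, fewer cells of a type and less RNA per cell cannot be told apart.

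Per kilobase of transcript, which makes genes comparable, *Krt18* and *Vim* carried most of the filament RNA of this tissue. The median over the 14 pools was 112 CPM per kilobase for *Krt18*, 71.2 for *Vim*, 18.0 for *Lmna* and 11.4 for *Synm*. *Gfap* (4.17), *Krt8* (3.18), *Lmnb1* (2.57), *Lmnb2* (2.16) and *Nes* (1.19) were far lower on the same scale. The ranges over pools of these 5 genes overlap, and their order is not firm. *Krt19*, a type I keratin of ducts and other simple epithelia, had 2 counts in all, both in Otx2(+/AA) pool B, and no count in the other 13 pools. It passed no expression filter, and so 9 of the 10 genes were tested.

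**Figure D1:**
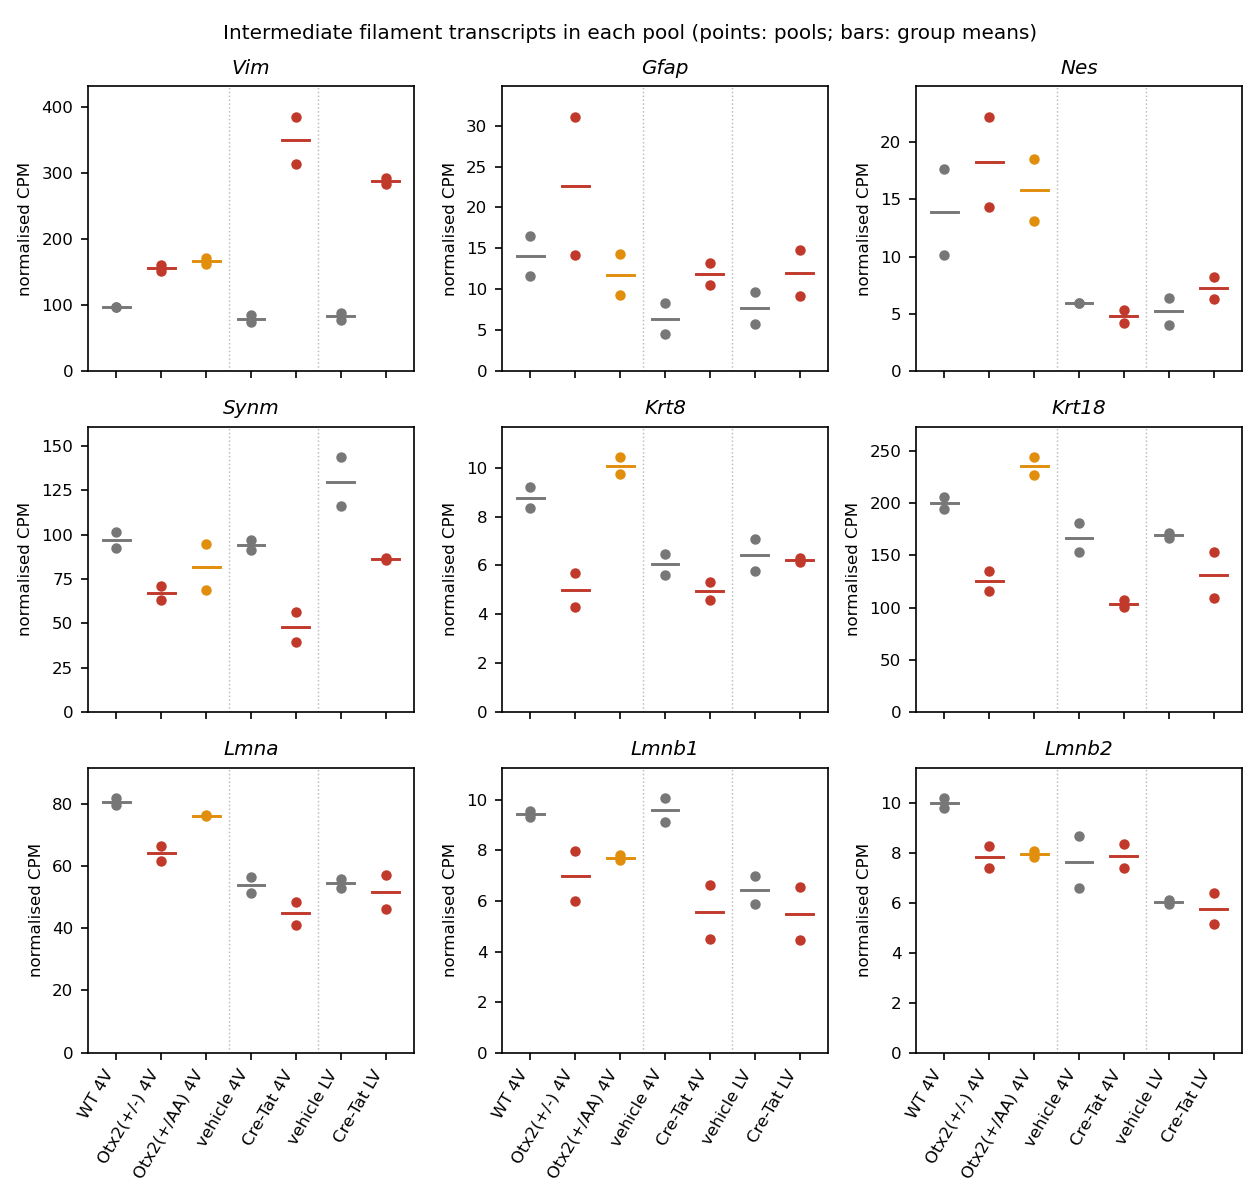
Level of each tested gene in CPM (vertical axis, from 0) in the 7 groups, with a point for each pool, a bar for the group mean, dotted lines between the constitutive 4V, conditional 4V and LV groups, and grey for the reference groups WT and vehicle. *Vim* stands at 73.4 to 96.9 CPM in the 6 reference pools and at 151 to 385 CPM in the 8 others, while *Synm* and *Krt18* are lower with Cre-Tat and in Otx2(+/-) than in their own reference pools.

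*Vim*, which encodes vimentin, was higher in every mutant or Cre-Tat group than in its reference. It lies on chromosome 2 (GRCm38, chr2:13573927-13582826, plus strand), and its counts come from the 9 exons of Vim-201. In LV ChP it had 77.1 and 88.1 CPM in the vehicle pools and 293 and 283 CPM in the Cre-Tat pools. In 4V ChP it had 84.3 and 73.4 CPM with vehicle and 385 and 314 CPM with Cre-Tat. No Cre-Tat pool came near a vehicle pool in either ventricle. By the quasi-likelihood test of edgeR, adjusted over all genes by the Benjamini-Hochberg method, the log2 fold change was 1.81 (standard error, SE, 0.16, adjusted p = 3.08e-05) in LV ChP and 2.15 (SE 0.15, adjusted p = 5.08e-08) in 4V ChP. These p values and those below describe the fit over all genes and are not independent evidence, because the genes were listed with the results known and *Vim* was singled out by the study on the same pools. The study also measured *Vim* by quantitative PCR in LV ChP of other mice after viral knockdown of *Otx2*, which these data do not hold.

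In the constitutive model *Vim* rose less. The WT pools had 96.1 and 96.9 CPM, the Otx2(+/-) pools 151 and 161 CPM and the Otx2(+/AA) pools 162 and 171 CPM. Both mutant labels stood above WT without overlap, with log2 fold changes of 0.70 (SE 0.11, adjusted p = 0.0114) for Otx2(+/-) and 0.78 (SE 0.13, adjusted p = 0.0209) for Otx2(+/AA), 2 comparisons that share the WT pools. With counts summed over all transcripts of a gene, the Otx2(+/AA) value was 0.77 with an adjusted p of 0.0568. Set directly against each other, the mutant labels differed by -0.09 (SE 0.14, adjusted p = 0.835) in log2 *Vim*. *Otx2* itself was 0.06 (SE 0.13) from WT in log2 in the Otx2(+/AA) pools, by the count over the whole transcript, which does not check the labels. LV and 4V vehicle pools differed by 0.06 in log2 *Vim* (SE 0.12, adjusted p = 0.827).

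The rise of *Vim* with Cre-Tat was tested against its rise with Otx2(+/-) in 4V ChP, and the log2 difference between them was 1.44 (SE 0.19, adjusted p = 0.0021). The models differ in strain, allele, injection and sequencing run, which cannot be told apart. The responses of LV and 4V ChP to Cre-Tat differed by 0.34 in log2 *Vim* (SE 0.21, adjusted p = 1.00), so the higher value in 4V ChP was not separated from that in LV ChP. Both ventricles came from the same mice, which the fits between ventricles did not take into account. The 4 *Vim* transcripts in the files moved together, with log2 ratios of group means of 1.79 to 1.93 in LV ChP and 2.12 to 2.15 in 4V ChP. They share exons and may share reads.

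With Cre-Tat, markers of several cell types moved with *Vim*, and some of those cells are known to make vimentin. The 8 macrophage markers summed to 74.4 to 85.6 CPM in LV vehicle and 129 to 146 CPM in LV Cre-Tat. Of the 8, 3 passed the test, all higher, where 3.24% of all genes passed. In 4V ChP their sum was 60.2 to 62.1 CPM with vehicle and 94.5 to 135 CPM with Cre-Tat. Of the 8, 6 were higher in edgeR, where 10.7% of all genes passed, and 5 were called in DESeq2. The ependymal list summed to 187 to 227 CPM with vehicle and 375 to 378 CPM with Cre-Tat in 4V ChP. Of its 5 genes tested, 3 rose in both ventricles, *Foxj1*, *Dynlrb2* and *Ak7*, genes of motile cilia (3.24% of all genes passed in LV and 10.7% in 4V ChP). *Rarres2* (0.45 in log2 in LV and 0.31 in 4V ChP) and *Ccdc153* (-0.18 and -0.61) did not pass. Fibroblast markers split with Cre-Tat. *Col1a2*, a collagen chain, rose in both ventricles (1.64 in log2 in LV, adjusted p = 0.000115, and 1.57 in 4V, adjusted p = 1.25e-06, edgeR), and *Pdgfra*, a growth factor receptor, fell in both (-0.87, adjusted p = 0.00807, and -1.33, adjusted p = 3.06e-06). Of the endothelial markers *Plvap* rose in 4V ChP (0.70, adjusted p = 0.0342), where DESeq2 called 0, and of the mural markers 0 passed in either ventricle by edgeR or DESeq2, with 2 in LV and 0 in 4V ChP at an unadjusted p under 0.05. Summed over the lists, in 4V ChP the fibroblast sum was 530 to 552 CPM with vehicle and 464 to 516 CPM with Cre-Tat, the endothelial sum 119 to 133 CPM against 118 to 136 CPM and the mural sum 205 to 229 CPM against 212 to 237 CPM. In Otx2(+/-) the fibroblast sum was 1036 to 1146 CPM against 771 to 858 CPM in WT, with 2 of 7 markers higher in edgeR (3.53% of all genes passed) and 4 called in DESeq2. Of the 8 macrophage markers 1 was higher there in edgeR, with a list median of 0.04 in log2 and sums of 115 to 126 CPM. Of the 5 ependymal markers tested there, 0 passed in edgeR and in DESeq2, with 2 at an unadjusted p under 0.05. The ependymal sum was 275 to 322 CPM against 277 to 295 CPM in WT. In Otx2(+/AA) 0 markers of these lists passed in edgeR and in DESeq2, with 4 macrophage, 4 fibroblast and 1 mural marker at an unadjusted p under 0.05, and the macrophage sum was 133 to 147 CPM against 113 to 114 CPM in WT. No marker of the macrophage, ependymal, fibroblast, endothelial or mural lists was without counts in any group. The part of these cells, or of the epithelium itself, in the *Vim* values was not tested.

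**Figure D2:**
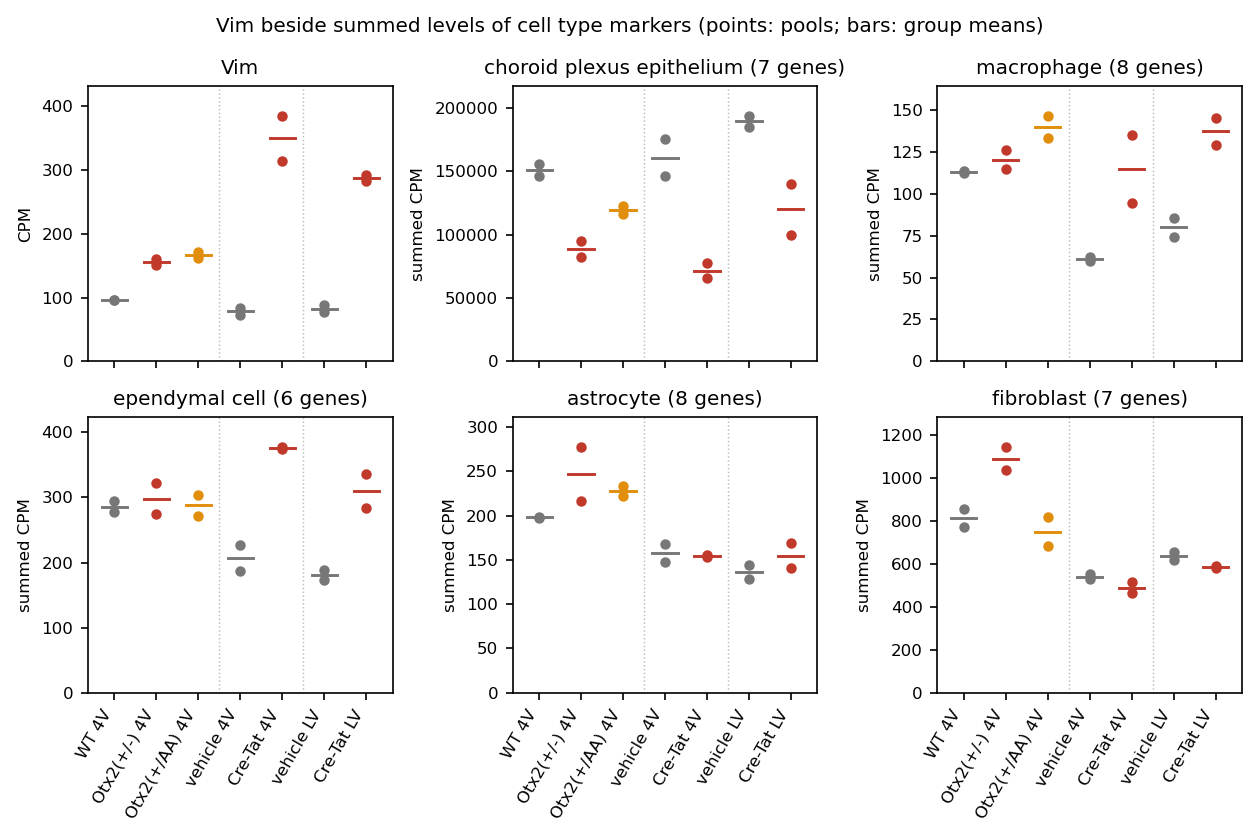
*Vim* in CPM and the summed CPM of 5 lists of cell type markers (vertical axes, from 0) in each group, with a point for each pool and a bar for the group mean. The epithelial sum is lower and the macrophage and ependymal sums are higher with Cre-Tat in 4V ChP (94.5 to 135 CPM against 60.2 to 62.1 CPM for macrophages), the fibroblast sum is higher in Otx2(+/-), and *Vim* is higher in all 4 of these non-reference groups.

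Among 10181 genes with a mean of at least 100 normalised counts, those closest to *Vim* over the 14 pools, by the root mean square difference of log2 levels centred within each sequencing run, were *Tmie* (0.20), *Acox2* (0.23), *Lix1* (0.25), *Mpeg1* (0.26) and *Cd55* (0.26). *Vim* itself lay 0.79 from a flat pattern on this scale. *Acox2* encodes a peroxisomal oxidase of bile acid synthesis, *Mpeg1* a pore-forming protein of macrophages and *Cd55* an inhibitor of complement. The other filament genes were farther from *Vim*. *Gfap*, the nearest of them at 0.66, ranked 604 among the 10181 genes, and *Synm*, the farthest at 1.17, ranked 9999.

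*Gfap*, on chromosome 11 (chr11:102887336-102900912, minus strand), was low and uneven. In 4V ChP it had 8.29 and 4.52 CPM with vehicle and 10.5 and 13.2 CPM with Cre-Tat, without overlap. Its log2 fold change was 0.87 (SE 0.24, adjusted p = 0.0267, edgeR), and without vehicle pool B it was 0.52 with an adjusted p of 0.244. DESeq2 gave an adjusted p of 0.0608. In LV ChP the vehicle pools had 5.78 and 9.60 CPM and the Cre-Tat pools 9.11 and 14.8 CPM, which overlap, and the log2 difference was 0.64 (SE 0.27, adjusted p = 0.279). WT pools had 16.5 and 11.6 CPM, Otx2(+/-) pools 14.2 and 31.1 CPM and Otx2(+/AA) pools 14.3 and 9.23 CPM. Otx2(+/-) pool B alone stood apart, and no constitutive comparison passed the test. With 1 pool left out the size of the difference hung on that pool, and such a fit does not measure the spread in a group of 1 pool. Against WT, Otx2(+/-) was higher by 0.97 in log2 without WT pool A and by 1.14 without Otx2(+/-) pool A, in a range of 0.02 to 1.14 over the pools left out. Against Otx2(+/AA) it was higher by 1.399 without Otx2(+/-) pool A and by 1.30 without Otx2(+/AA) pool A, in a range of 0.27 to 1.399. The other astrocyte markers were mixed in 4V ChP with Cre-Tat: *Aqp4*, a water channel, and *Slc1a3*, a glutamate transporter, rose, *Aldh1l1* fell, and the list of 8 summed to 147 to 168 CPM with vehicle and 153 to 155 CPM with Cre-Tat. In Otx2(+/-) against WT 3 of the 8 were higher and 0 lower in edgeR, where 3.53% of all genes passed. These were *Aqp4* (1.74 in log2, adjusted p = 0.0011), *Slc1a3* (1.61, adjusted p = 0.0042) and *S100b* (0.95, adjusted p = 0.0224). The list summed to 217 and 278 CPM in Otx2(+/-) pools A and B and to 198 to 199 CPM in WT. The part of astrocytes in the *Gfap* values was not tested.

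*Nes*, on chromosome 3 (chr3:87971078-87980451, plus strand), encodes nestin, a filament protein of neural progenitors and of some endothelial cells. It passed the test in none of the comparisons (edgeR, adjusted p 0.465 to 1.00). Without WT pool B, which leaves 1 WT pool, the Otx2(+/-) pools were higher than WT by 0.85 in log2 *Nes*. *Nes* had 4.01 and 6.41 CPM in LV vehicle, 8.19 and 6.33 CPM in LV Cre-Tat, 5.92 and 5.91 CPM in 4V vehicle and 4.23 and 5.34 CPM in 4V Cre-Tat. The constitutive pools were higher, with 10.1 and 17.7 CPM in WT, 14.3 and 22.2 CPM in Otx2(+/-) and 18.5 and 13.1 CPM in Otx2(+/AA), a difference between models that cannot be told apart from strain and run. The log2 differences with Cre-Tat were 0.48 (SE 0.26) in LV ChP and -0.30 (SE 0.24) in 4V ChP, and the difference between them, -0.79 (SE 0.36), had an unadjusted p of 0.0477 and an adjusted p of 1.00.

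*Synm*, which encodes synemin, a linker that ties vimentin and desmin filaments to the cell cortex, moved opposite to *Vim*. It lies on chromosome 7 (chr7:67730160-67759742, minus strand) and is read from the 4 exons of Synm-202. RefSeq promoter windows of GRCm38.p6 were found for 8 of the 10 genes, with none for *Krt19* and *Lmnb1*. The 250 bases before the *Synm* start are shown because this was the 1 window of the 10 with GGATTA or its reverse complement TAATCC, letters bound by the homeodomain class to which OTX2 belongs. Capitals mark both matches, 206 to 201 and 187 to 182 bases before the start, at chr7:67759743-67759992, minus strand, 5′ to 3′.
Synm: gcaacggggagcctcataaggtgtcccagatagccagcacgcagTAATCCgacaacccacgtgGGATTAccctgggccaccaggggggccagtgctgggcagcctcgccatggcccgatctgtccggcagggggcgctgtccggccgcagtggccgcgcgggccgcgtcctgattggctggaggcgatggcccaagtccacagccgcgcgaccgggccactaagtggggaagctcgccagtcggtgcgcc
Of all 32851 promoter stretches of this length, 6.25% hold 1 or more such matches on either strand and 0.295% hold 2 or more. The GC box GGGCGG was found before *Nes*, *Lmna* and *Lmnb2* (32.7% of all promoters), the TATA box TATAAA before *Vim*, 32 to 27 bases from its start (12.4% of all), and the AP-1 letters TGANTCA before none of these genes (6.75% of all). A match is a description of the sequence and no evidence of binding, and a window without one says only that these letters are not in it.

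In 4V ChP *Synm* had 91.3 and 97.0 CPM with vehicle and 39.3 and 56.1 CPM with Cre-Tat. The Cre-Tat pools lay well below both vehicle pools, a log2 fold change of -0.98 (SE 0.15, adjusted p = 0.000394, edgeR). In LV ChP it had 116 and 144 CPM with vehicle and 85.7 and 87.03 CPM with Cre-Tat. These groups did not overlap either, but the log2 difference of -0.59 (SE 0.17) had an adjusted p of 0.0754 with edgeR and 0.0196 with DESeq2. The responses of the ventricles differed by -0.39 in log2 (SE 0.24, adjusted p = 1.00).

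In the constitutive model *Synm* had 92.4 and 101 CPM in WT, 71.2 and 62.9 CPM in Otx2(+/-) and 94.8 and 68.9 CPM in Otx2(+/AA). The Otx2(+/-) pools were below WT with a log2 difference of -0.53 (SE 0.12), which missed the threshold in edgeR (adjusted p = 0.0534) and passed it in DESeq2 (adjusted p = 0.0224). The Otx2(+/AA) pools spread from near WT to near Otx2(+/-) (-0.25, SE 0.16, adjusted p = 0.751). Between vehicle pools, *Synm* was higher in LV than in 4V ChP by 0.46 (SE 0.13, adjusted p = 0.0423), a call that was lost when any 1 of 3 of the 4 pools was left out and when counts were scaled by library totals (0.27, adjusted p = 0.233). Of the 50-base stretches of the transcript, the read length, 4.70% also occur in transcripts of *Ttc23* or *Gm45102*, which overlap it on the opposite strand. The strand setting of the counting is not given in the sources used here.

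*Krt18*, on chromosome 15 (chr15:102028180-102032027, plus strand), encodes the type I keratin of simple epithelia and fell with Cre-Tat in 4V ChP and in Otx2(+/-). In 4V ChP it had 181 and 153 CPM with vehicle and 107 and 101 CPM with Cre-Tat, without overlap. The log2 fold change was -0.68 (SE 0.14, adjusted p = 0.0032, edgeR), and without vehicle pool A it was -0.55 with an adjusted p of 0.0869. In LV ChP the vehicle pools had 172 and 167 CPM and the Cre-Tat pools 109 and 153 CPM. Cre-Tat pool B lay close to vehicle, and the log2 difference of -0.37 (SE 0.18) did not pass (adjusted p = 0.392). Leaving out Cre-Tat pool B, which leaves 1 Cre-Tat pool, gave -0.62.

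WT pools had 206 and 195 CPM of *Krt18*, Otx2(+/-) pools 116 and 135 CPM and Otx2(+/AA) pools 227 and 244 CPM. The Otx2(+/-) pools stood below all the others of this model, with a log2 fold change against WT of -0.67 (SE 0.12, adjusted p = 0.0203). Otx2(+/AA) pools were on the other side of WT (0.22, SE 0.13, adjusted p = 0.704). Set against each other, Otx2(+/-) was lower than Otx2(+/AA) by 0.90 in log2, that is -0.90 (SE 0.15, adjusted p = 0.00585). *Krt18* thus separated the mutant labels, which *Vim* did not, and its fall in Otx2(+/-) was close to that with Cre-Tat in 4V ChP, with a tested log2 difference of -0.02 (SE 0.18).

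*Krt8*, the type II partner of KRT18, lies beside it on chromosome 15 (chr15:101996698-102004482, minus strand). It had 8.35 and 9.22 CPM in WT, 4.29 and 5.70 CPM in Otx2(+/-) and 9.75 and 10.4 CPM in Otx2(+/AA). Its order was that of *Krt18*: lowest in Otx2(+/-) without overlap, by -0.81 in log2 against WT (SE 0.21, adjusted p = 0.0736) and by -1.01 against Otx2(+/AA) (SE 0.21, adjusted p = 0.0228). The latter call was lost with summed transcripts (adjusted p = 0.0725) and without Otx2(+/-) pool A (adjusted p = 0.0905). With Cre-Tat it gave no call: 7.07 and 5.77 CPM in LV vehicle against 6.30 and 6.14 CPM (-0.04, SE 0.23), and 5.63 and 6.46 CPM in 4V vehicle against 5.32 and 4.58 CPM (-0.28, SE 0.24).

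Per kilobase, *Krt18* exceeded *Krt8* by 23.6 to 43.8 times in every pool. All type II keratins together, *Krt8* included, came to 2.53 to 6.38 CPM per kilobase in a pool, and the other keratins to 71.2 to 171. Of the 50-base stretches of *Krt8*, 29.7% also occur in transcripts of *Krt8-ps* or *Gm36026*, against 0.72% of the stretches of *Krt18* that occur in those of other genes, so the level of *Krt8* is uncertain by reads that several genes share.

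The summed epithelial markers were lower in the 4V Cre-Tat and Otx2(+/-) groups, in which *Krt18* fell. By the read numbers of the study *Ttr* lies far above the other markers, so these sums follow mainly *Ttr*. The paper calls *Ttr* a known direct target of OTX2. With Cre-Tat in 4V ChP all 7 fell in edgeR, where 10.7% of all genes passed in either direction, and 6 were called in DESeq2. Their sum was 146000 to 175100 CPM with vehicle and 65370 to 77320 CPM with Cre-Tat. In LV ChP 2 of the 7 fell in edgeR, *Aqp1* and *Kcne2*, and 5 in DESeq2 (3.24% of all genes passed in edgeR), and the sums were 185000 to 193900 CPM and 99650 to 139900 CPM. In Otx2(+/-) 3 of the 7 fell in edgeR, *Ttr*, *Folr1* and *Prlr*, and 4 were called in DESeq2 (3.53% of all genes passed in edgeR). *Clic6* (0.05 in log2) and *Kcne2* (0.11) were not lower there. The sums were 82490 to 95310 CPM against 145900 to 155300 CPM in WT. Otx2(+/AA) pools lay between, at 116400 to 122200 CPM, with 0 markers past the test in edgeR and in DESeq2 and 3 at an unadjusted p under 0.05, while *Krt18* and *Krt8* were not below WT there. The part of epithelial RNA in the keratin and synemin values was not tested.

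**Figure D3:**
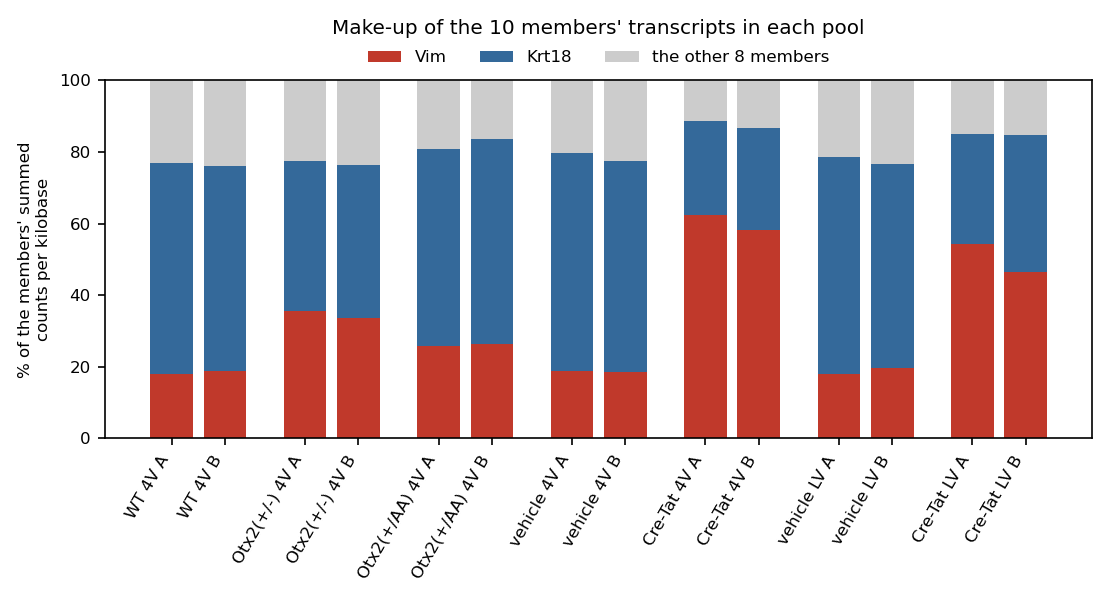
Share of *Vim*, *Krt18* and the other 8 genes in the summed counts per kilobase of the 10 genes, in % (vertical axis), with a bar for each of the 14 pools. *Vim* makes up 17.9 to 19.7% in the 6 WT and vehicle pools, 25.8 to 26.3% in Otx2(+/AA), 33.5 to 35.7% in Otx2(+/-), 46.4 to 54.2% in LV Cre-Tat and 58.2 to 62.3% in 4V Cre-Tat.

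The ratio of *Vim* to *Krt18* within a pool needs no scaling between pools. Per length it was 0.306 and 0.326 in WT, 0.306 and 0.313 in 4V vehicle and 0.294 and 0.345 in LV vehicle, so the reference pools of both models and ventricles were alike. It was 0.469 and 0.460 in Otx2(+/AA), 0.854 and 0.782 in Otx2(+/-), 1.76 and 1.21 in LV Cre-Tat and 2.36 and 2.05 in 4V Cre-Tat. *Vim* passed *Krt18* only in the 4 Cre-Tat pools. The ratio of *Vim* to *Synm* spread more, from 2.19 and 2.36 in LV vehicle to 19.9 and 34.9 in 4V Cre-Tat. With 2 pools in each group no exact permutation test of these ratios could reach 0.05, and none was run.

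Of the nuclear lamins, *Lmna* encodes lamin A and C, which stiffen the nucleus, and *Lmnb1* and *Lmnb2* encode the B-type lamins. *Lmna*, on chromosome 3 (chr3:88480147-88509956, minus strand), had 53.0 and 55.8 CPM in LV vehicle, 46.2 and 57.0 CPM in LV Cre-Tat, 56.4 and 51.2 CPM in 4V vehicle and 48.4 and 41.1 CPM in 4V Cre-Tat. It had 81.7 and 79.7 CPM in WT, 61.7 and 66.5 CPM in Otx2(+/-) and 76.2 and 76.0 CPM in Otx2(+/AA). The Otx2(+/-) pools were lowest in their model, yet no difference passed, that of Otx2(+/-) against WT being -0.33 (SE 0.11, adjusted p = 0.151). *Lmna* was the most even of the tested genes beside *Lmnb2*, its highest pool being 1.99 times its lowest.

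*Lmnb1*, on chromosome 18 (chr18:56707813-56753424, plus strand), had 9.11 and 10.1 CPM in 4V vehicle and 4.503 and 6.65 CPM in 4V Cre-Tat. The groups did not overlap, and the log2 fold change was -0.77 (SE 0.23, adjusted p = 0.0349, edgeR). DESeq2 gave an adjusted p of 0.100, and the call was lost when either vehicle pool or Cre-Tat pool A was left out (adjusted p 0.0524, 0.102 and 0.194). LV vehicle pools had 5.87 and 7.01 CPM and LV Cre-Tat pools 4.46 and 6.56 CPM, which overlap, and WT, Otx2(+/-) and Otx2(+/AA) pools had 9.34 and 9.56, 7.97 and 6.01, and 7.83 and 7.61 CPM. *Lmnb2*, on chromosome 10 (chr10:80901203-80918245, minus strand), ranged from 5.14 CPM in LV Cre-Tat pool B to 10.2 CPM in WT pool A. It gave no call, and its log2 difference with Cre-Tat in 4V ChP was 0.06 (SE 0.22), against -0.77 for *Lmnb1*. Markers of proliferating cells, in which *Lmnb1* is known to be high, summed to 8.89 to 10.2 CPM in 4V vehicle and 8.86 to 15.03 CPM in 4V Cre-Tat. Within that list *Cdk1* fell (-1.37 in log2, adjusted p = 0.0197, edgeR), while *Mki67* (1.51, adjusted p = 0.0541) and *Top2a* (1.56, adjusted p = 0.0897) did not pass, and their part in the result was not tested.

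**Figure D4:**
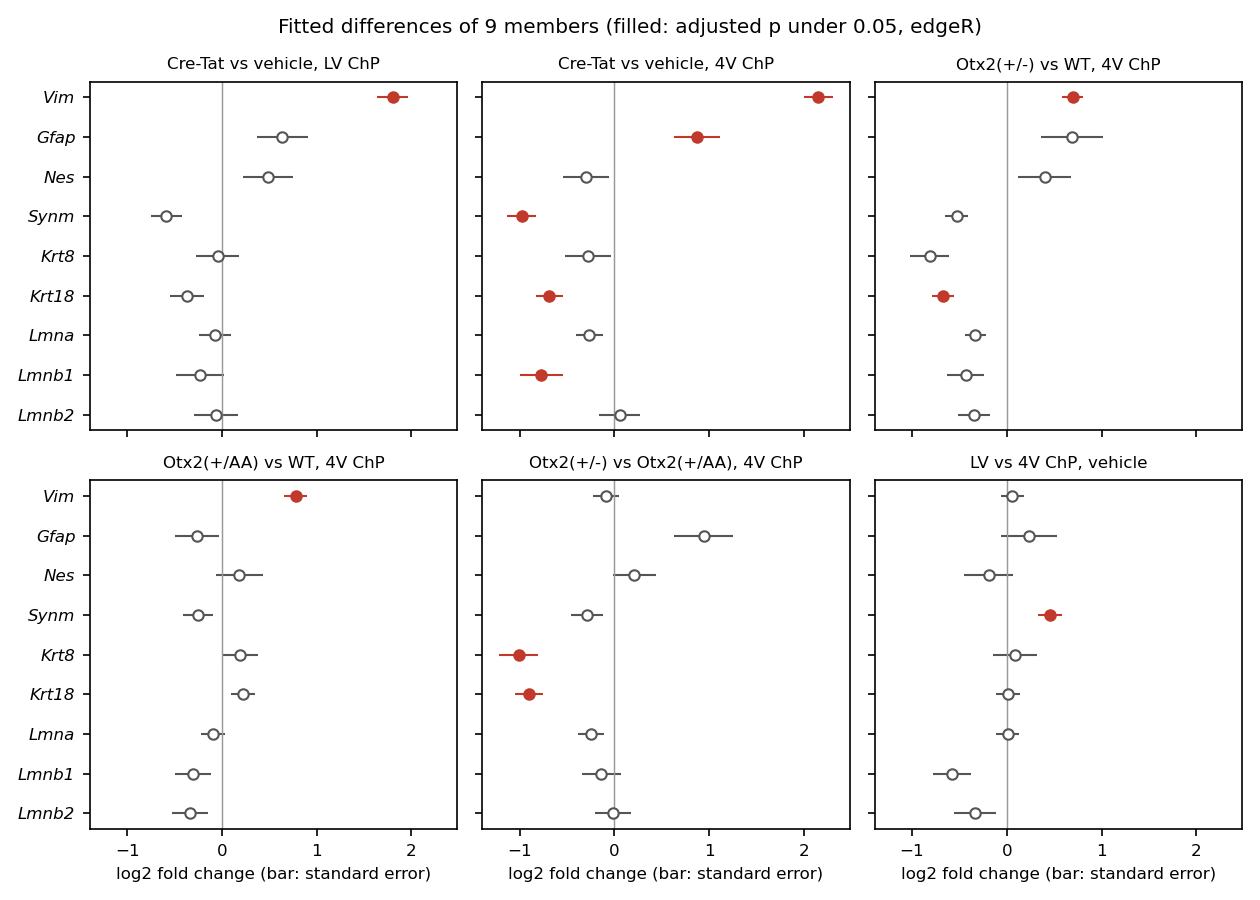
Fitted log2 fold change of 9 genes (points, horizontal axis) with its standard error (bars) in 6 comparisons, the group named first set against the group named second, with filled points for an adjusted p under 0.05 over all genes (edgeR). *Vim* is right of 0 and filled in the 4 comparisons with vehicle or WT, *Synm*, *Krt18* and *Lmnb1* are left of 0 and filled with Cre-Tat in 4V ChP, and *Krt8* and *Krt18* alone are filled between the mutant labels.

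In counts, 1 of the 9 tested genes passed in LV ChP with Cre-Tat, where 3.24% of all genes tested passed, and 5 of 9 in 4V ChP, where 10.7% of all passed. The 5 were *Vim*, *Gfap*, *Synm*, *Krt18* and *Lmnb1*, of which DESeq2 kept *Vim*, *Synm* and *Krt18*. Otx2(+/-) against WT gave 2 of 9 (3.53% of all genes), Otx2(+/AA) against WT 1 (0.345% of all) and Otx2(+/-) against Otx2(+/AA) 2 (2.7% of all). LV against 4V vehicle pools gave 1, *Synm* (7.44% of all). The difference between the Cre-Tat responses of the ventricles gave 0 by edgeR and by DESeq2, with 1 gene, *Nes*, at an unadjusted p under 0.05 (0.00642% of all genes passed), and the difference between the 4V responses of the models gave 1, *Vim* (1.64% of all). The median log2 fold change of the 9 genes was -0.06 with Cre-Tat in LV ChP, -0.28 with Cre-Tat in 4V ChP and -0.35 in Otx2(+/-), where the median of all genes tested was within 0.01 of 0. Since the genes were listed with these results known, the counts describe the list and do not set it apart from other genes.

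The remaining intermediate filament genes, 58 in number, were mostly silent, with counts in any pool for 45 of them. The highest per kilobase were *Iffo1* (a mean of 4.54 CPM per kilobase), *Des* (3.17), *Sync* (3.05), *Iffo2* (2.89) and *Nefh* (2.77), of which *Des* encodes desmin of muscle and *Nefh* the heavy neurofilament. Of the 12, 9, 14 and 13 tested with Cre-Tat in LV, with Cre-Tat in 4V, in Otx2(+/-) and in Otx2(+/AA) against their references, 0 passed in edgeR and 0 in DESeq2, with 4, 1, 1 and 6 at an unadjusted p under 0.05. *Nefh* was higher in Otx2(+/-) than in Otx2(+/AA), with 33.2 and 22.4 CPM against 8.53 and 15.3 CPM (log2 fold change 1.24, SE 0.26, adjusted p = 0.0228). LV vehicle pools had more *Krt1* (2.52), *Krt23* (2.38) and *Nefh* (1.82) and less *Iffo2* (-0.71) than 4V vehicle pools, in log2. That made 4 of 10 tested in edgeR, where 7.44% of all genes passed, and DESeq2 called 1 of the 10.

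Of the 17 linker and desmosome plaque genes, the proteins that anchor filaments at cell junctions, *Dsp* and *Evpl* passed in comparisons with mutants or Cre-Tat, both lower. *Dsp*, encoding desmoplakin, which ties keratin to desmosomes, had 158 and 124 CPM in WT, 62.0 and 49.1 CPM in Otx2(+/-) and 116 and 116 CPM in Otx2(+/AA). It fell in Otx2(+/-) by 1.34 in log2 against WT and by 1.06 against Otx2(+/AA), so that, like *Krt18* and *Krt8*, it was lower in Otx2(+/-) than in both other groups. With Cre-Tat in 4V ChP it had 89.6 and 147 CPM against 156 and 219 CPM with vehicle and fell by 0.66, and in LV ChP it gave no call. *Evpl*, encoding envoplakin, fell by 0.94 with Cre-Tat in 4V ChP and by 0.96 in Otx2(+/-). That made 2 of 13 tested in 4V ChP with Cre-Tat, a share near the 10.7% of all genes, where DESeq2 called 0, and 2 of 14 in Otx2(+/-) (3.53% of all genes), where DESeq2 also called 2, while the medians of the list were 0.09 and 0.13.

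The partners of the lamina, 19 genes of the nuclear membrane and of lamin processing, were nearly flat. In the comparisons with a mutant or Cre-Tat 1 passed, *Syne3*, encoding nesprin-3, which links the nuclear envelope to intermediate filaments through plectin. It was higher by 0.62 in log2 with Cre-Tat in 4V ChP (21.6 and 23.1 CPM with vehicle, 31.8 and 36.6 CPM with Cre-Tat). That made 1 of 18 tested there, where 10.7% of all genes passed, and does not set the list apart. Of 10 genes of the epithelial-mesenchymal programme, in which vimentin is a common marker, *S100a4* rose in LV ChP with Cre-Tat (2.03 in log2, from 0.525 and 0.944 CPM to 3.53 and 2.48 CPM). That made 1 of 9 tested there, where 3.24% of all genes passed. *Cdh1*, encoding E-cadherin of epithelial junctions, was higher and not lower in Otx2(+/-) (1.33) and Otx2(+/AA) (1.07). These were 1 of 8 tested in Otx2(+/-) (3.53% of all genes passed) and 1 of 9 in Otx2(+/AA) (0.345% of all). None of the 8 tested passed in 4V ChP with Cre-Tat by edgeR or DESeq2, with 2 at an unadjusted p under 0.05. Of 7 genes of reactive glia, *Cd44*, a hyaluronan receptor, rose with Cre-Tat in 4V ChP (2.30 in log2, from 0.741 and 0.830 CPM to 4.45 and 3.27 CPM). That made 1 of 5 tested there, where 10.7% of all genes passed. No other gene of this list passed in a comparison with a mutant or Cre-Tat (edgeR and DESeq2).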

How the data were processed

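The authors deposited counts, whole numbers of reads per Ensembl transcript without normalization, from RNA depleted of ribosomal RNA per the labels (the study's methods name PolyA+ RNA) and read at 50 bases. The submitters' processing notes name Bowtie 0.12.9, HTSeq 0.5.3 and mm10. Symbols came from GENCODE vM21 for 82807 of 95533 transcripts, and 1 transcript stood for each gene. Both technical runs of a conditional pool were summed. File totals were 11253762 to 43790479 counts, which set counting error only, and 2 pools in a group limit the precision. The genes and lists were chosen with earlier results of these data known.

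Tests used edgeR 4.0.16 in R 4.3.3 on the groups compared (filterByExpr, TMM factors, quasi-likelihood test, Benjamini-Hochberg adjustment over all genes, threshold 0.05), and a standard error is the log2 fold change over the root of F. DESeq2 1.42.0, other scalings, filters, a replicate block, summed transcripts, all groups of a run, each pool left out and the files as attached were alternatives. Scripts were tested on simulated data. Named were the 10 genes, *Otx2*, up to 5 genes per list past the threshold and the 5 genes most like *Vim*. RefSeq promoters and tables were handled in Python 3.11.15 with pandas 2.3.3.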

Additional observations from a re-analysis of the deposited data

Results flagged for a closer look

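*Vim* responded more strongly in the conditional than in the constitutive model in 4V ChP. The log2 fold change was 2.15 (standard error, SE, 0.15) for Cre-Tat against vehicle and 0.70 (SE 0.11) for Otx2(+/-) against WT, and the interaction term over 8 pools was 1.44 (SE 0.19, adjusted p = 0.0021 over all genes in edgeR). Strain, allele, injection and sequencing run differ between the models, pool size may differ, and these cannot be told apart. With 2 pools in a group, no test for single pools that stand apart was possible.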

How the results depend on the processing

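With 2 pools in a group, a single pool can decide a call, and with 2 counts in all *Krt19* could not be tested. *Vim* kept its direction and its call in every comparison with vehicle or WT (8 of 8 alternatives in LV, 4V and Otx2(+/-), and with each pool left out), except in Otx2(+/AA) with summed transcripts. The labels do not say that pool letters pair the samples, and 2 pairs cannot show it. The correlation of deviations between same letters was -0.13 (LV), 0.14 (4V), 0.35 (Otx2(+/-)) and 0.08 (Otx2(+/AA)). With the letter as a replicate block, 7 of the 9 genes passed in Otx2(+/-) against WT in place of 2, adding *Gfap*, *Nes*, *Synm*, *Krt8* and *Lmna* (adjusted p 0.0225, 0.0379, 0.000192, 0.00105 and 0.0159), and 2 in LV against 4V in place of 1, while over all genes calls went from 1554 to 3114 in 4V Cre-Tat, from 515 to 2539 in Otx2(+/-), from 50 to 549 in Otx2(+/AA) and from 1083 to 2288 in LV against 4V. The crossed pairing of the LV Cre-Tat pools, added after the data were seen, gave 2 of the 9 genes in place of 1 and 1012 calls over all genes in place of 486.

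Genes passing with DESeq2 were 2 in LV Cre-Tat and 3 in 4V Cre-Tat, without a filter 2 in LV Cre-Tat, with all groups of the run 3 in 4V Cre-Tat and 0 in LV against 4V, and with summed transcripts 0 in Otx2(+/AA) against WT, 1 in Otx2(+/-) against Otx2(+/AA) and 0 in LV against 4V. With the files as attached, which mixes pools, 5 passed in LV Cre-Tat, 4 in LV against 4V, 4 for treatment by ventricle and 5 for label by model, with 6709, 4718, 5258 and 4688 calls over all genes and 8742 in 4V Cre-Tat. Leaving out each pool gave 1 to 2 in LV Cre-Tat, 3 to 5 in 4V Cre-Tat, 3 to 5 in Otx2(+/-), 2 to 3 in Otx2(+/-) against Otx2(+/AA), and 0 to 1 in LV against 4V. Each such fit leaves 1 pool in a group, and its p value does not measure the spread there. Calls gained in this way were *Gfap* (1.05) without vehicle pool B and *Krt18* without Cre-Tat pool B in LV Cre-Tat. In Otx2(+/-) against WT they were *Gfap*, *Synm* and *Krt8* without WT pool A, *Nes* without WT pool B, *Gfap* and *Synm* without Otx2(+/-) pool A and *Krt8* without Otx2(+/-) pool B. Against Otx2(+/AA), *Gfap* was gained without Otx2(+/-) pool A and without Otx2(+/AA) pool A. Over all genes the ranges were 321 to 737 (LV Cre-Tat), 905 to 1665 (4V Cre-Tat), 402 to 881 (Otx2(+/-)), 35 to 382 (Otx2(+/AA)), 393 becoming 403 to 790 (Otx2(+/-) against Otx2(+/AA)), 400 to 1968 (LV against 4V), 0 to 3 (treatment by ventricle) and 80 to 246 (label by model). Over all genes, Otx2(+/AA) calls were 122 with DESeq2, 390 without a filter, 22 with summed transcripts and 18 with all groups, LV Cre-Tat 874, LV against 4V 1840 and label by model 627 without a filter. With summed transcripts there were 248 for Otx2(+/-) against Otx2(+/AA) (393 before) and 166 for label by model (252 before), and with all groups 717 for LV against 4V. The treatment by ventricle count went from 1 to 5 with DESeq2, 31 without a filter, 2 with the block and 0 with a mean above 10 or summed transcripts.

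Scaling by total counts moved the median of all genes by 0.17 (LV), 0.15 (4V), 0.11 (Otx2(+/AA)), -0.19 (LV against 4V) and 0.12 (label by model) in log2, and the share of higher genes among calls from 68.1 to 89.2%, 53.3 to 75.5%, 50.0 to 73.7%, 46.5 to 17.1% and 47.6 to 64.0%, and for Otx2(+/-) against Otx2(+/AA) from 50.6 to 38.4%. It turned the sign of values near 0: *Krt8* 0.13, *Lmna* 0.0931 and *Lmnb2* 0.11 in LV Cre-Tat, *Lmna* 0.0254 in Otx2(+/AA), *Vim* -0.13, *Krt8* -0.10, *Krt18* -0.17 and *Lmna* -0.18 in LV against 4V and *Krt18* 0.0914 for label by model. With it the *Lmnb1* call in 4V Cre-Tat was lost (adjusted p = 0.0744). Summed transcripts turned *Lmnb2* to -0.0130 in 4V Cre-Tat and 0.0114 in Otx2(+/-) against Otx2(+/AA).

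Leaving out a pool also turned uncalled values. The ranges were -0.18 to 0.11 for *Krt8*, -0.22 to 0.0836 for *Lmna*, -0.52 to 0.0429 for *Lmnb1* and -0.22 to 0.0927 for *Lmnb2* in LV Cre-Tat, and -0.12 to 0.26 for *Lmnb2* in 4V Cre-Tat. In Otx2(+/AA) they were -0.62 to 0.0257 for *Gfap* and -0.17 to 0.64 for *Nes*, and in Otx2(+/-) against Otx2(+/AA) -0.14 to 0.49 for *Nes*, -0.36 to 0.0550 for *Lmnb1* and -0.10 to 0.0679 for *Lmnb2*. In LV against 4V they were -0.0364 to 0.18 for *Vim*, -0.15 to 0.77 for *Gfap*, -0.54 to 0.10 for *Nes*, -0.0810 to 0.25 for *Krt8*, -0.10 to 0.15 for *Krt18* and -0.0583 to 0.0939 for *Lmna*. For treatment by ventricle they were -0.17 to 0.76 for *Gfap* and -0.0691 to 0.31 for *Lmnb2*, and for label by model -0.28 to 0.84 for *Gfap*, -0.13 to 0.10 for *Krt18* and -0.0661 to 0.19 for *Lmna*. Where no value above shows a cause, the cause was not tested.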
